A study of Homo sapiens with 12 samples.

Results

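Genes of the TGF-beta and BMP pathways and of the ID family were followed in MCF10A-Inducible TAZ-4SA cells. 10 genes, TGFB1, TGFB2, INHBA, TGFBR1, TGFBR2, SMAD3, SMAD7, ID1, ID2 and ID3, were taken by symbol from the 60483 gene rows of each table, and all 10 were among the 14822 genes with enough counts to test. MCF10A is a non-transformed human mammary epithelial cell line. The cells had been transduced with TAZ-4SA, a constitutively active form of the Hippo pathway coactivator TAZ, behind a promoter that doxycycline (Dox) switches on. Every group carried this construct and grew in the same medium with horse serum, EGF, insulin, hydrocortisone and cholera toxin. The groups were cells kept without Dox (No Dox) and cells given 0.05 µg/mL Dox for 24, 48 or 72 h, with 3 RNA-seq libraries in each of the 4 groups. Nothing in the labels ties the 3 replicates to separate cultures, so the p-values measure the spread between these libraries, which may be technical. Cells with Dox but without the construct, and No Dox cells at the later times, were not analysed here, so the induced protein, the drug and time in culture cannot be told apart.

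TGF-beta ligands and activins bind pairs of type I and type II receptor kinases, which phosphorylate SMAD2 and SMAD3, whereas BMP receptors phosphorylate SMAD1, SMAD5 and SMAD9. These SMADs enter the nucleus with SMAD4 and switch on target genes, among them SMAD7, which feeds back on the receptors. The ID genes are classic BMP targets in epithelium, where TGF-beta can repress them, and they encode helix-loop-helix proteins that lack a DNA-binding region and hold E proteins off DNA. In mammary epithelium TGF-beta is known for growth arrest and for epithelial-mesenchymal transition.

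The libraries held between 15382564 and 26570132 assigned counts. WWTR1, which encodes TAZ, averaged 887 ± 68.1, 844 ± 73.6 and 994 ± 59.3 CPM (counts scaled to a common library total after TMM normalization) at 24, 48 and 72 h, against 71.7 ± 2.88 CPM in No Dox cells (SD, n = 3 each). The effective transcript length that RSEM assigned to WWTR1 averaged 1091, 1067 and 1111 bases at these times, against 3228.5 bases without Dox. In TPM, which is scaled by that length, WWTR1 averaged 1002, 994 and 1126, against 26.6 without Dox. Reads of the construct and of the cells' own WWTR1 were not separated. All 12 mammary epithelial markers were detected in every group, with summed levels of 11420 to 13540 CPM in the Dox libraries and 10840 to 11630 CPM in the No Dox libraries. Within this list KRT7, KRT8 and KRT18 were called higher and TP63 and KRT17 lower at 24 h, and TP63 averaged 4.45, 2.77 and 1.49 CPM at 24, 48 and 72 h, against 77.4 CPM in No Dox cells. Of the 10 fibroblast markers, COL1A2, COL3A1, PDGFRA and THY1 were at 0 in all groups, and the summed level was 22.1 to 29.4 CPM with Dox and 60.3 to 62.3 CPM without Dox, of which DCN alone averaged 50.1 CPM. Summed endothelial markers lay between 2.18 and 13.4 CPM with Dox and between 36.9 and 38.7 CPM without. Blood markers summed to 7.88 to 10.8 CPM with Dox and 26.8 to 32.7 CPM without. The share of counts from the mitochondrial rRNA genes was 0.169% to 0.244% in the Dox libraries and 0.786% to 0.830% in the No Dox libraries. The fibroblast, endothelial and blood sums, TP63 and the rRNA share separated the same groups as the results that follow, and their part in those results was not tested. In bulk RNA, fewer cells expressing a gene and less RNA per cell cannot be told apart.

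The sequence upstream of the start site is given for TGFB2 and INHBA, which rose most, and for ID1 and ID3, which moved in opposite directions between 24 and 72 h. Each line holds the 250 bases before the first start that RefSeq lists (GRCh38.p14), 5′ to 3′ on the strand of the gene. TGFB2 spans chr1:218345086-218345335 on the plus strand, INHBA chr7:41703091-41703340 on the minus strand, ID1 chr20:31605039-31605288 on the plus strand and ID3 chr1:23559502-23559751 on the minus strand. Capitals mark letters searched on both strands: GGAATG (bound by TEAD factors, the DNA-binding partners of TAZ), TGACTCA (AP-1), GTCTG (bound by SMADs), GGCGCC (a GC-rich site bound by BMP SMADs) and CANNTG (the E-box of E proteins).
TGFB2: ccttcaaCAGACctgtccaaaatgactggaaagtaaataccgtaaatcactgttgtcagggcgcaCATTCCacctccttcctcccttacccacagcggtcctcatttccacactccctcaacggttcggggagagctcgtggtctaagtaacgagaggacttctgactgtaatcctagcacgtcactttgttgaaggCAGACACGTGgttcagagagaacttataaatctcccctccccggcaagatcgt
INHBA: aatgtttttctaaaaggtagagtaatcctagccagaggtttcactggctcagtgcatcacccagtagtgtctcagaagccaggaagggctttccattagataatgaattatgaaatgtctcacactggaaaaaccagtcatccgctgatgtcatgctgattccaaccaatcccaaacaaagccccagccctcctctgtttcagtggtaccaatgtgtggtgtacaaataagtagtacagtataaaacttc
ID1: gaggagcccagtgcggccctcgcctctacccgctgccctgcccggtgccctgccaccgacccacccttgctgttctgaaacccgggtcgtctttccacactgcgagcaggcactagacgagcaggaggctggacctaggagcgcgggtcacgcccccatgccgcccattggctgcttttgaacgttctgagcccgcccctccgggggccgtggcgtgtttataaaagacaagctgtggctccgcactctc
ID3: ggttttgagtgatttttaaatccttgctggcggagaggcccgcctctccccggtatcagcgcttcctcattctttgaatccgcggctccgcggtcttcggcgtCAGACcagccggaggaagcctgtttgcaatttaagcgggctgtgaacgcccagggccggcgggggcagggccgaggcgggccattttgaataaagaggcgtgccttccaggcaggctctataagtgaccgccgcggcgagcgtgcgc
The TGFB2 window held the TEAD letters, reversed, from base -185 (counted back from the start), the SMAD letters, reversed, from -243 and -53, and 1 E-box from -49 that shares its first base with the nearer SMAD letters. The ID3 window held 1 reversed set of SMAD letters, from -147. The INHBA and ID1 windows held none of the 5 sets of letters. Among 35116 RefSeq promoter windows of the same length, 11.9% held the TEAD letters, 4.2% the AP-1 letters, 38% the SMAD letters, 16.4% the GC-rich letters and 61.8% an E-box, so these matches are a description only. All 250 bases of the TGFB2 window lie in exons of TGFB2-AS1 on the opposite strand, and 94 bases of the ID1 window lie in exons of ID1 or of an unnamed gene (GENCODE 44). The INHBA window lies in no exon but inside the annotated span of INHBA, whose 5′ end is at chr7:41705834. Sequence before that end was not searched.

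Activation of TAZ-4SA was accompanied by higher TGFB2, INHBA, ID2 and ID3 at all 3 times and by higher ID1 from 48 h on, while no TGF-beta receptor or SMAD gene among the 10 was called higher. The 3 comparisons with No Dox share the same 3 No Dox libraries. The largest changes were those of INHBA, 14.8-fold higher at 72 h than in No Dox cells, and of TGFB2, 9.84-fold higher. Genes were called at an adjusted p under 0.05 and a log2 fold change of at least 1 in size (edgeR quasi-likelihood test, Benjamini-Hochberg over all genes tested). At 24 h, 4 of the 10 genes were called higher and 0 lower. 3 were lower at an unadjusted p under 0.05, and DESeq2 likewise called 4 higher and 0 lower. Of all genes tested, 29.6% were called at this time, 12% higher and 17.7% lower. At 48 h, 5 genes were called higher and 1 lower, beside 25.1% of all genes (10.6% higher and 14.4% lower). At 72 h, 5 were higher and 1 lower, beside 22.5% of all genes (10.2% higher and 12.3% lower). The median log2 fold change of the 10 genes was 0.14, 0.59 and 0.38 at 24, 48 and 72 h, and that of all genes tested was -0.03, -0.01 and -0.02. The Dox and No Dox ranges did not overlap for 8, 10 and 10 of the 10 genes at 24, 48 and 72 h, beside 77.6%, 74.8% and 72.9% of all genes, and 8, 9 and 10 passed the adjusted p alone, beside 75.2%, 71.8% and 69.2%. Over the whole time course 7 of the 10 genes were called, beside 35.9% of all genes.

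**Figure D1:**
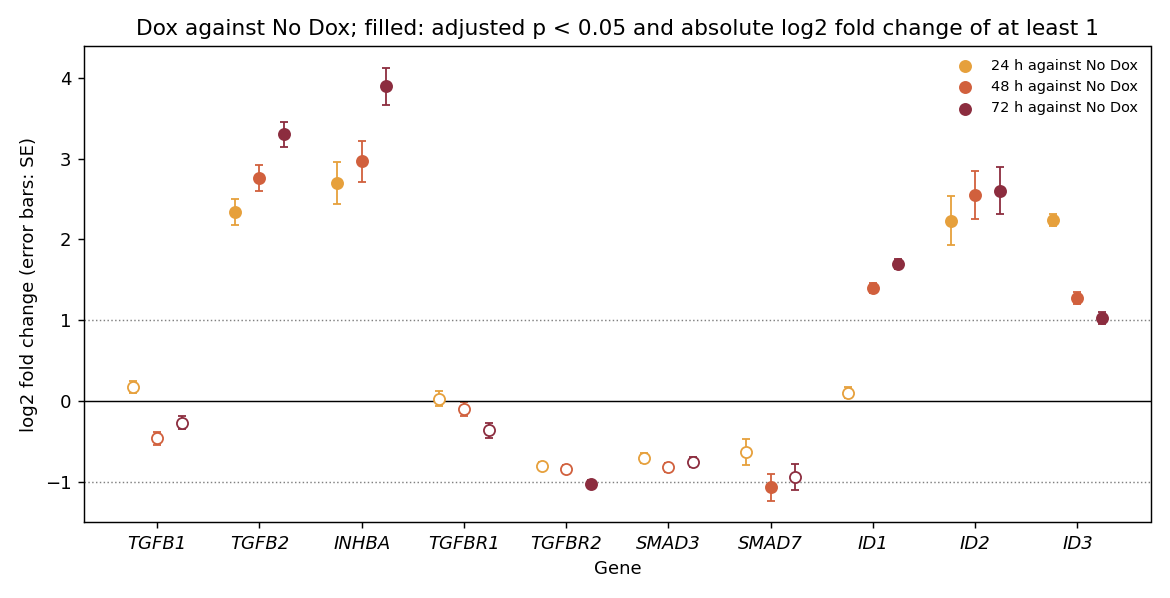
Log2 fold change of each of the 10 genes (horizontal axis) at 24, 48 and 72 h of Dox against No Dox, with standard errors from the edgeR fit (n = 3 libraries per group). Filled points passed both thresholds and open points did not, and the dotted lines mark log2 fold changes of -1 and 1. TGFB2, INHBA and ID2 were higher at every time, ID1 was called at 48 and 72 h only, and the 3 ID3 points stand lower at each later time.

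Among the ligands, TGFB2 (chr1:218345336-218444619), which encodes the TGF-beta 2 ligand, rose at each time. It had 3.24, 3.62 and 5.94 CPM in the No Dox libraries, 17.99, 23.2 and 24.0 CPM at 24 h, 28.1, 32.1 and 26.8 CPM at 48 h and 45.6, 43.3 and 38.1 CPM at 72 h. All 9 Dox libraries lay above the 3 No Dox libraries, and the ranges of the 3 times did not overlap either. Against No Dox, the log2 fold changes at the 3 times were 2.34 ± 0.16, 2.76 ± 0.16 and 3.30 ± 0.15 (± SE, edgeR adjusted p = 3.14e-11, 1.37e-12 and 4.81e-14). RSEM shared some reads of TGFB2 with other genes, with a posterior SD of at most 5.79% of its count, while the counts of the other 9 genes were whole. The strand setting of the counting is not given in the sources used here, so reads from TGFB2-AS1 and from TGFB2 may not be fully separated.

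INHBA (chr7:41667168-41705834), whose product forms the subunit of activin A, was the least abundant of the 3 ligand genes and rose most. It had 0.783, 0.505 and 0.739 CPM without Dox, 3.93, 5.20 and 4.36 CPM at 24 h, 4.02, 5.53 and 6.94 CPM at 48 h and 8.99, 11.4 and 10.6 CPM at 72 h. The ranges at 24 and 48 h overlapped each other, and both lay apart from those of the No Dox and 72 h libraries. The log2 fold change was 2.69 ± 0.26, 2.97 ± 0.25 and 3.89 ± 0.23 at 24, 48 and 72 h (edgeR adjusted p = 5.44e-09, 9.08e-10 and 3.18e-12). The No Dox value rests on 40 counts over 3 libraries.

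TGFB1 (chr19:41301587-41353922), the TGF-beta 1 ligand gene and the most abundant of the 3, was not called at any time. It ranged over 52.1 to 54.3 CPM without Dox, 55.2 to 68.1 CPM at 24 h, 35.5 to 41.5 CPM at 48 h and 42.4 to 46.1 CPM at 72 h. The groups did not overlap, but the differences were small, with log2 fold changes of 0.18 ± 0.07, -0.46 ± 0.08 and -0.26 ± 0.08 that passed the adjusted p and not the fold threshold (edgeR adjusted p = 0.0323, 1.68e-05 and 0.00409). In TPM, the deposited unit that is scaled by transcript length, the ratio of TGFB2 to TGFB1 was 0.033 to 0.0619 without Dox, 0.21 to 0.326 at 24 h, 0.413 to 0.598 at 48 h and 0.582 to 0.645 at 72 h. TGFB1 thus remained the more abundant transcript per length in all 12 libraries.

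**Figure D2:**
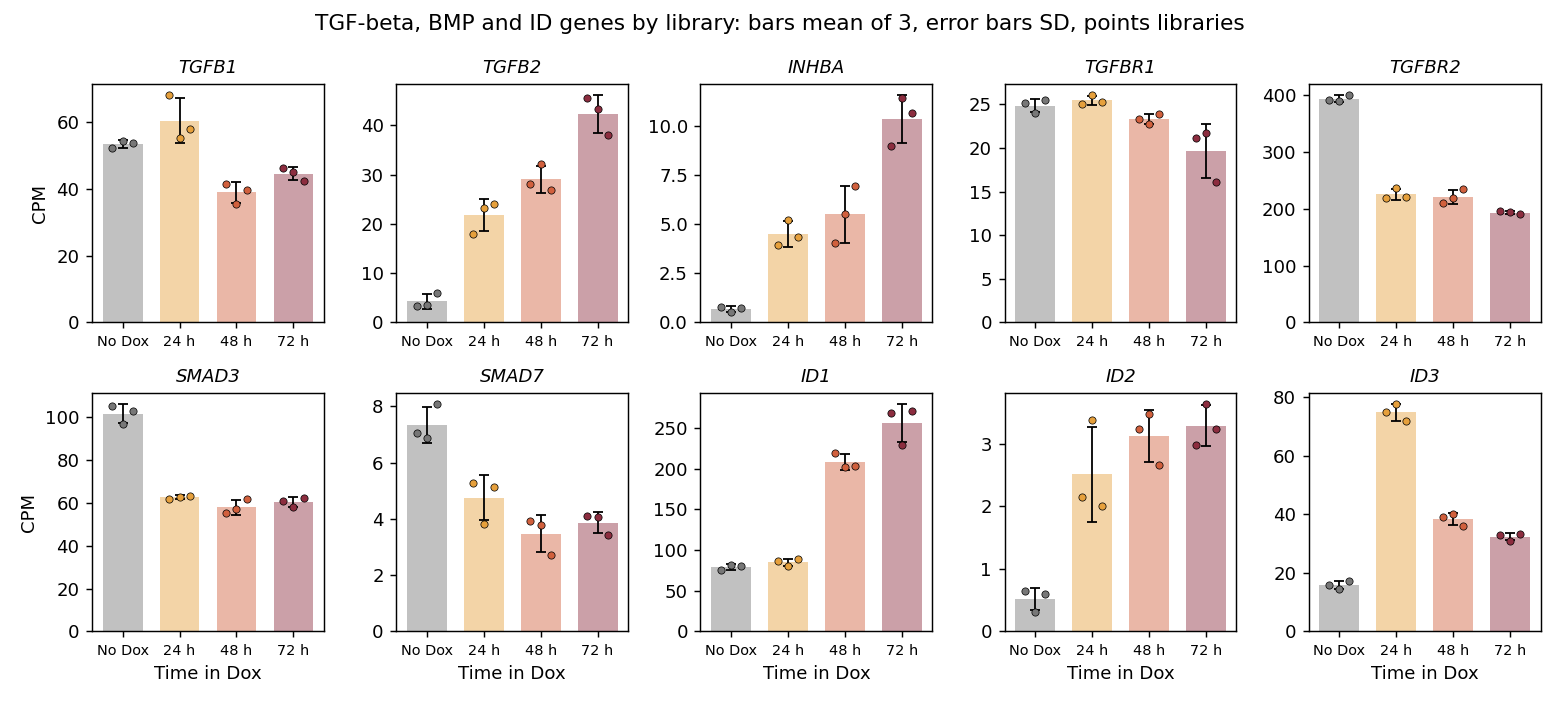
CPM of the 10 genes in each library (points), with the group mean (bars) and SD (error bars, n = 3), for No Dox cells and 24, 48 and 72 h of Dox. Each panel has its own axis from 0. TGFB2, INHBA and ID2 libraries with Dox all lie above those without, TGFBR2 and SMAD3 libraries with Dox all lie below, and ID3 is highest at 24 h while ID1 is highest at 72 h.

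TGFBR2 (chr3:30606601-30694142), which encodes the type II receptor that binds TGF-beta directly, had 390, 389 and 400 CPM in No Dox cells, 219, 236 and 220 CPM at 24 h, 210, 219 and 235 CPM at 48 h and 195, 195 and 190 CPM at 72 h. Every Dox library was below every No Dox library. Its log2 fold changes of -0.80 ± 0.05 (24 h) and -0.83 ± 0.05 (48 h) did not meet the fold threshold, and the value reached -1.02 ± 0.05 at 72 h, the only time at which TGFBR2 was called (edgeR adjusted p = 2.66e-12, 1.87e-12 and 6.67e-14). The 72 h value sits at the threshold, and with no filter on low counts it was -0.997 and was not called.

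TGFBR1 (chr9:99104038-99154192), the type I receptor kinase that acts with TGFBR2, ranged over 24.0 to 25.5 CPM without Dox, 25.0 to 26.1 CPM at 24 h, 22.7 to 23.9 CPM at 48 h and 16.1 to 21.7 CPM at 72 h. It was not called at any time, and only the 72 h difference, -0.36 ± 0.09 on the log2 scale, passed the adjusted p (edgeR adjusted p = 0.00155, against 0.746 at 24 h and 0.345 at 48 h). The third 72 h library was the lowest of all 12, at 16.1 CPM. The TPM ratio of TGFBR2 to TGFBR1 was 11.8 to 12.5 at 24 h, 12.5 to 13.8 at 48 h and 11.7 to 16.0 at 72 h, each below the 20.9 to 22 of No Dox cells.

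Neither SMAD gene was called higher. SMAD3 (chr15:67063763-67195173), the receptor-activated SMAD of the TGF-beta and activin branch, was 96.6 to 105 CPM without Dox, 61.7 to 63.2 CPM at 24 h, 55.1 to 61.7 CPM at 48 h and 58.0 to 62.1 CPM at 72 h. The 9 Dox libraries lay below the 3 No Dox libraries and overlapped one another. Its log2 fold changes of -0.70 ± 0.06, -0.81 ± 0.06 and -0.75 ± 0.06 all passed the adjusted p but not the fold threshold (edgeR adjusted p = 3.13e-10, 3.41e-11 and 1.39e-10).

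SMAD7 (chr18:48919853-48950965), the inhibitory SMAD that is itself a TGF-beta target, had 7.05, 6.88 and 8.08 CPM in No Dox cells, 5.29, 3.82 and 5.14 CPM at 24 h, 3.92, 3.79 and 2.72 CPM at 48 h and 4.11, 4.07 and 3.43 CPM at 72 h. All Dox libraries were below all No Dox libraries, and the Dox ranges overlapped. The log2 fold change was -0.63 ± 0.16, -1.06 ± 0.17 and -0.93 ± 0.16 (edgeR adjusted p = 0.00133, 8.14e-06 and 3.40e-05), so SMAD7 was called at 48 h only. That call was lost without the third No Dox library (-0.98) and without the third 48 h library (-0.93). The TPM ratio of SMAD3 to SMAD7 was 5.26 to 6.54 at 24 h, 6.12 to 9.46 at 48 h and 6.38 to 7.42 at 72 h, overlapping the 5.84 to 7.13 of No Dox cells.

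The 3 ID genes rose on different schedules. ID3 (chr1:23557926-23559501) had 15.9, 14.4 and 17.1 CPM in No Dox cells, 75.1, 77.5 and 71.9 CPM at 24 h, 39.0, 40.0 and 36.0 CPM at 48 h and 32.8, 31.0 and 33.1 CPM at 72 h. It was highest at 24 h, lower at each later time, and above the No Dox range in all 9 Dox libraries, with no overlap between any 2 groups. The log2 fold changes in time order were 2.24 ± 0.07, 1.27 ± 0.07 and 1.03 ± 0.07 (edgeR adjusted p = 4.44e-17, 1.39e-12 and 6.98e-11). The 72 h value lies just past the threshold, and it was 0.98 without the second No Dox library and 0.996 with upper-quartile scaling.

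ID1 (chr20:31605283-31606515) had 75.0, 82.0 and 80.4 CPM in No Dox cells, 86.6, 80.0 and 88.6 CPM at 24 h, 219, 202 and 203 CPM at 48 h and 269, 230 and 271 CPM at 72 h. The 24 h and No Dox libraries overlapped, and the 48 and 72 h libraries lay above both. The log2 fold change was 0.11 ± 0.07 at 24 h (edgeR adjusted p = 0.154), 1.40 ± 0.06 at 48 h and 1.70 ± 0.06 at 72 h (edgeR adjusted p = 3.58e-14 and 1.47e-15).

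ID2 (chr2:8678845-8684461) was the least abundant of the ID genes detected, at 0.645, 0.316 and 0.591 CPM in No Dox cells, 2.15, 3.38 and 1.997 CPM at 24 h, 3.23, 3.48 and 2.66 CPM at 48 h and 2.98, 3.63 and 3.24 CPM at 72 h. All 9 Dox libraries exceeded the No Dox libraries, and the 3 times overlapped. Its log2 fold change was 2.23 ± 0.30, 2.55 ± 0.30 and 2.60 ± 0.29 (edgeR adjusted p = 1.06e-06, 1.23e-07 and 8.97e-08), with 31 counts in all behind the No Dox value. ID4, the remaining ID gene, had 0 counts in all 12 libraries, which allows up to 0.0519 CPM in the No Dox group and 0.0479 to 0.0515 CPM in the Dox groups (3 counts over the 3 libraries of a group, counting error only).

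The make-up of the ID transcripts therefore differed between times. On the TPM scale the 3 genes summed to 145 ± 5.60 TPM in No Dox cells, 242 ± 4.69 TPM at 24 h, 400 ± 6.19 TPM at 48 h and 477 ± 31.6 TPM at 72 h (SD, n = 3 each). ID1 made up 84.4% to 86.3% of this sum without Dox, 55% to 60% at 24 h, 85.4% to 86.6% at 48 h and 88.9% to 90.4% at 72 h. ID3 held 13.5% to 14.7% without Dox, 39.1% to 43.4% at 24 h, 12.2% to 13.5% at 48 h and 8.85% to 9.68% at 72 h. The share of ID3 was thus largest in the 24 h libraries, where the ID1 to ID3 ratio was 1.27 to 1.53, against 5.77 to 6.41 in No Dox cells, and that ratio reached 9.18 to 10.2 at 72 h.

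**Figure D3:**
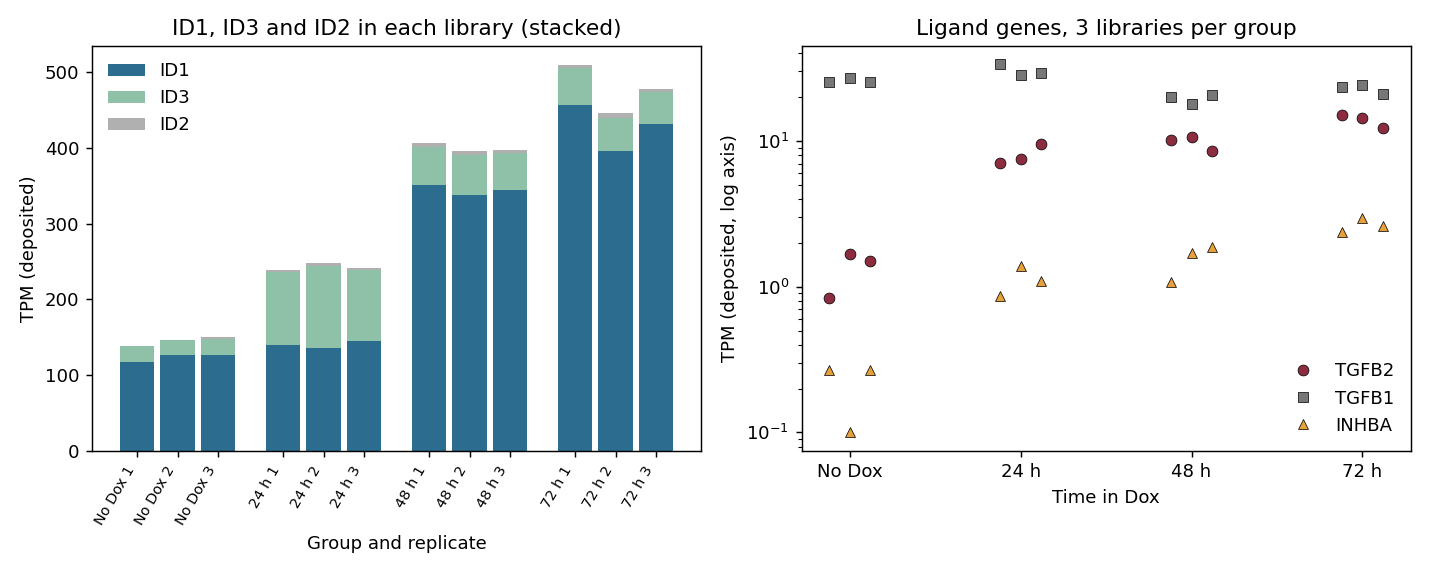
Deposited TPM per library. Left, ID1, ID3 and ID2 stacked for each of the 12 libraries in the order No Dox, 24, 48 and 72 h, where the ID3 band is widest at 24 h and the ID1 band at 72 h. Right, the ligand genes TGFB1, TGFB2 and INHBA on a log axis, where TGFB2 nears but stays below TGFB1.

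The times in Dox were then compared with each other, since all these cells had TAZ-4SA induced. Between 48 h and 24 h, ID1 was the only one of the 10 genes called (beside 4.51% of all genes tested, 3.08% higher and 1.44% lower), with a log2 fold change of 1.29 ± 0.06 (edgeR adjusted p = 2.05e-12). ID3 was lower at 48 h by -0.96 ± 0.06 on the log2 scale, past the adjusted p (1.99e-10, edgeR) and just short of the fold threshold. Between 72 h and 24 h, 2 genes were called higher and 1 lower, beside 12.3% of all genes (8.28% higher and 3.99% lower). ID1 was higher by 1.59 ± 0.06 and INHBA by 1.20 ± 0.17, and ID3 was lower, at -1.21 ± 0.06 (edgeR adjusted p = 2.33e-14, 3.83e-06 and 2.11e-12). TGFB2 was higher at 72 h than at 24 h by 0.96 ± 0.12 on the log2 scale, under the fold threshold (edgeR adjusted p = 8.64e-07), and it was called in the fits that left out the second (1.02) or the third (1.03) 24 h library or the third 72 h library (1.04). Between 72 h and 48 h, 0 of the 10 genes were called by edgeR or by DESeq2, beside 3.24% of all genes (2.3% higher and 0.938% lower). 4 were higher and 3 lower there at an unadjusted p under 0.05, and INHBA, at 0.92 ± 0.17, was called without the third 48 h library (1.10) or the first 72 h library (1.01). At the adjusted p alone, 4, 7 and 7 of the 10 genes differed for 48 h against 24 h, for 72 h against 48 h and for 72 h against 24 h, beside 36.5%, 38.7% and 60.7% of all genes. The ranges did not overlap for 5, 7 and 7, beside 44.9%, 47.7% and 63.3%.

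Per length, ID1 was the most abundant of the 10 genes in all 4 groups, at 123 ± 4.93 TPM in No Dox cells and 428 ± 30.3 TPM at 72 h. In No Dox cells it was followed by TGFBR2 (108 TPM), TGFB1 (25.9 TPM), SMAD3 (23.8 TPM), ID3 (20.5 TPM), TGFBR1 (5.00 TPM), SMAD7 (3.69 TPM), TGFB2 (1.33 TPM), ID2 (1.01 TPM) and INHBA (0.213 TPM). Only TGFB2 and ID2 overlapped as neighbours in this order. At 72 h the order was ID1, TGFBR2 (55.8 TPM), ID3 (44.7 TPM), TGFB1 (22.9 TPM), SMAD3 (15.9 TPM), TGFB2 (13.9 TPM), ID2 (4.51 TPM), TGFBR1 (4.22 TPM), INHBA (2.65 TPM) and SMAD7 (2.30 TPM). There SMAD3 and TGFB2, ID2 and TGFBR1, and INHBA and SMAD7 overlapped and could not be ordered beyond their spread. ID3 stood second at 24 h, at 99.4 ± 7.25 TPM, above TGFBR2 at 63.5 ± 4.602 TPM.

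The effective transcript length that RSEM assigned to ID1 averaged 743 ± 4.56 bases at 24 h, against 765 ± 13.2 bases in No Dox cells (SD, n = 3 each). The lengths were compared by an exact two-sided permutation test, which cannot give a p below 0.1 for 3 against 3 libraries. Whether transcript lengths of the 10 genes differed could therefore not be shown here. The effective length of TGFB2 varied between 2602 and 4710 bases among the No Dox libraries.

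Of 120 other genes of these pathways on the lists examined, 92 had enough counts to test. At 24 h, 22 of the 92 were called higher and 26 lower, at 48 h 20 and 23, and at 72 h 18 and 21. Of all genes tested, 12% were called higher and 17.7% lower at 24 h, 10.6% and 14.4% at 48 h, and 10.2% and 12.3% at 72 h. The median log2 fold change of the 92 genes was -0.20, -0.14 and -0.17, beside medians of -0.03, -0.01 and -0.02 for all genes tested. These lists were chosen with earlier results of these data known. Of the 28 genes left out, 11 had 0 counts in every library.

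The other ligand genes went both ways. GDF11, which signals through the activin receptors, averaged 4.10 ± 0.50 CPM in No Dox cells, 15.1 ± 0.90 CPM at 24 h, 8.68 ± 1.24 CPM at 48 h and 7.49 ± 0.84 CPM at 72 h, and was called higher at 24 and 48 h. The 48 h call (log2 fold change 1.09 ± 0.14) was lost without the third No Dox library (0.99) or the first 48 h library (0.98). GDF15, a stress-induced distant member of the family, averaged 11.9 ± 1.68, 4.42 ± 0.73, 17.7 ± 2.84 and 36.8 ± 7.62 CPM in the same order, and was called lower at 24 h (log2 fold change -1.46 ± 0.18) and higher at 72 h (1.62 ± 0.14). AMH, the anti-Müllerian hormone gene, was called lower at 72 h, with 3.86 ± 1.59 CPM against 11.4 ± 0.19 CPM in No Dox cells. BMP1, which despite its name encodes a procollagen protease, was lower at 24 h (51.3 ± 3.07 CPM) and at 48 h (70.2 ± 2.09 CPM), against 184 ± 3.88 CPM without Dox. Of the 10 tested genes of this list, 3 were called higher and 5 lower at 24 h, 3 and 4 at 48 h, and 3 and 3 at 72 h. The share of all genes called was 29.6%, 25.1% and 22.5% at these times.

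Latent TGF-beta is released from its matrix complex by integrins and by thrombospondin 1, and genes of both kinds changed in opposite directions. THBS1, the thrombospondin 1 gene, averaged 325 ± 3.39 CPM in No Dox cells and 2249 ± 81.2, 1959 ± 135 and 1809 ± 156 CPM at 24, 48 and 72 h (log2 fold changes 2.79, 2.59 and 2.48, each ± 0.06). ITGB8, a beta subunit of an activating integrin, averaged 140 ± 7.99 CPM in No Dox cells and 13.2 ± 1.21, 17.3 ± 1.48 and 16.9 ± 1.33 CPM at the 3 times (log2 fold changes -3.40, -3.01 and -3.05). ITGB6, the beta subunit of the epithelial activating integrin, was lower at every time, most at 48 h, with 3.48 ± 0.27 CPM against 23.1 ± 1.28 CPM in No Dox cells. LTBP4, which anchors latent TGF-beta in the matrix, was also lower at every time, at 33.5 ± 1.27 CPM at 72 h against 86.3 ± 2.65 CPM without Dox. In this list of 10 tested genes, 2 were called higher and 5 lower at 24 h, 1 and 5 at 48 h, and 1 and 4 at 72 h. The share of all genes called was 29.6%, 25.1% and 22.5% at these times.

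Of the 12 other receptor genes tested, 1 was called higher and 4 lower at 24 h, 0 and 1 at 48 h, and 0 and 0 at 72 h. The share of all genes called was 29.6%, 25.1% and 22.5% at these times. At the adjusted p alone (edgeR), 1 receptor gene was higher and 7 lower at 24 h and at 48 h, and 1 and 8 at 72 h. That rule passed 75.2%, 71.8% and 69.2% of all genes, so the fall in calls came with the fold threshold. TGFBR3, the co-receptor betaglycan, averaged 16.2 ± 2.53, 17.98 ± 3.03 and 28.5 ± 1.39 CPM at 24, 48 and 72 h, against 52.3 ± 1.04 CPM in No Dox cells. ENG, the co-receptor endoglin, averaged 82.1 ± 11.03, 64.7 ± 7.504 and 49.5 ± 0.87 CPM, against 35.4 ± 3.26 CPM, and was called at 24 h only (log2 fold change 1.21 ± 0.09). ACVR2B, an activin type II receptor gene, and NEO1, the neogenin gene, were called lower at 24 h (-1.43 ± 0.12 and -1.06 ± 0.07). Among 8 other SMAD and adaptor genes, SMAD9, a BMP-branch SMAD gene, was lower at all 3 times, with log2 fold changes of -1.28, -1.26 and -1.30 (each ± 0.13). SMAD6, an inhibitory SMAD gene of the BMP branch, was the 1 called higher, at 2.23 ± 0.39, 2.07 ± 0.39 and 1.19 ± 0.42 (edgeR adjusted p = 2.58e-05, 8.17e-05 and 0.0176). With a mean under 5 CPM in every group, SMAD6 falls outside the naming rule and was picked after its values were seen.

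Of the intracellular restraint genes, 14 were tested, with 3 called higher and 1 lower at 24 h, and 1 and 0 at 48 h and at 72 h. The share of all genes called was 29.6%, 25.1% and 22.5% at the 3 times. PMEPA1, a TGF-beta-induced inhibitor of receptor-SMAD contact, averaged 64.9 ± 1.12 CPM at 24 h, 27.5 ± 1.003 CPM at 48 h and 15.4 ± 1.15 CPM at 72 h, against 19.7 ± 0.33 CPM in No Dox cells. It was called higher at 24 h only (1.72 ± 0.07), and its 72 h value, -0.36 ± 0.07, became 0.22 when effective lengths were used. BAMBI, a pseudoreceptor that blocks the type I receptors, was higher at all 3 times (1.656 ± 0.205, 1.505 ± 0.208 and 1.40 ± 0.21). SMURF2, a ubiquitin ligase for the receptors and SMADs, was called higher at 24 h (1.34 ± 0.06), and TOB1, a repressor of BMP SMADs, was called lower then (-1.05 ± 0.07), a call lost without the first 24 h library (-0.97).

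Of the extracellular antagonist genes, 7 of 14 were tested, with 2 called higher and 3 lower at each time. The share of all genes called was 29.6%, 25.1% and 22.5% at 24, 48 and 72 h. FSTL1, a follistatin-like secreted protein gene, averaged 293 ± 5.16, 401 ± 2.83 and 461 ± 14.7 CPM at 24, 48 and 72 h, against 44.2 ± 1.40 CPM in No Dox cells. FSTL3, which binds activins, was highest at 24 h, at 317 ± 23.9 CPM, and was 175 ± 7.29 CPM at 72 h, against 79.0 ± 4.07 CPM. NOG, the gene of the BMP antagonist noggin, fell to 0.749 ± 0.14, 0.556 ± 0.08 and 0.564 ± 0.16 CPM, against 6.35 ± 0.45 CPM (log2 fold changes -3.09, -3.52 and -3.52). DCN, a matrix proteoglycan that binds TGF-beta and is also on the fibroblast list, had 63, 11 and 3 counts over the 3 libraries of the 24, 48 and 72 h groups, against 2892 in No Dox cells.

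**Figure D4:**
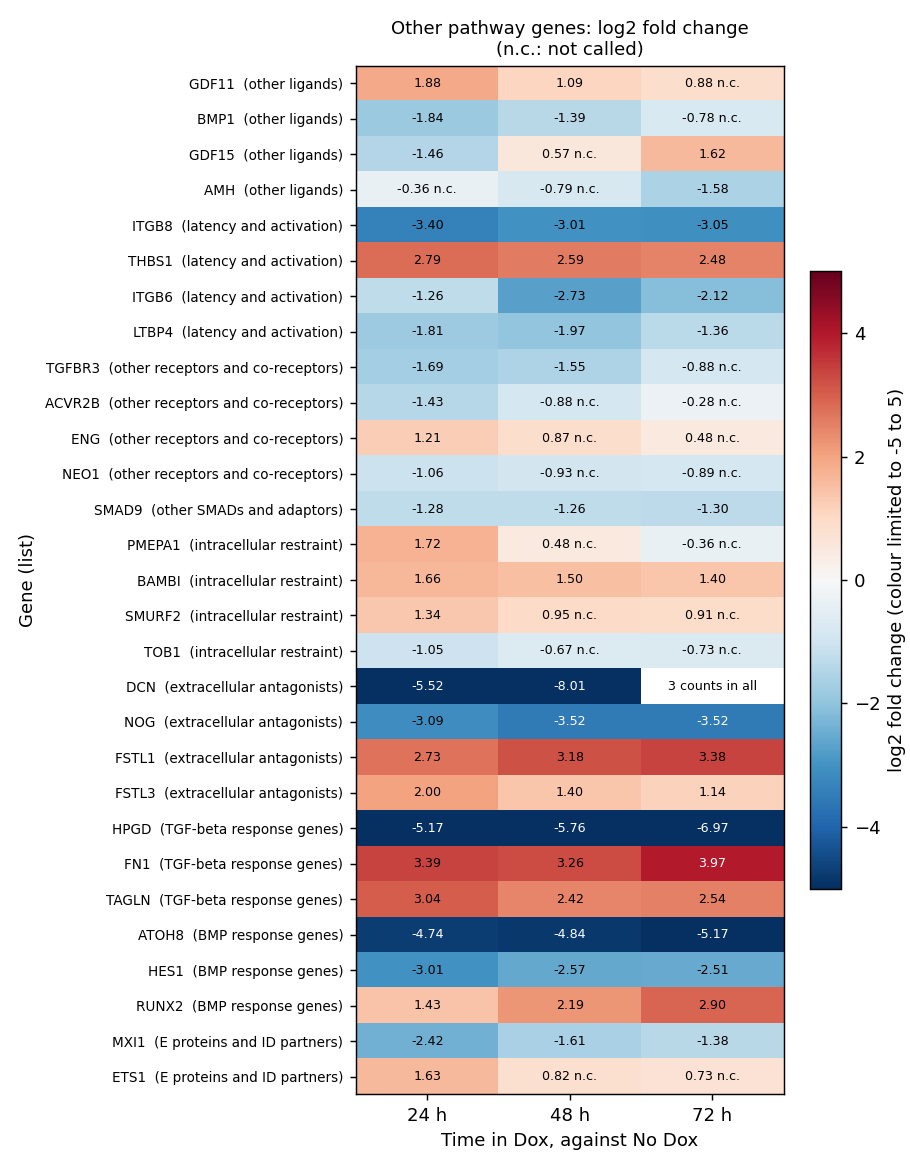
Log2 fold change of the other pathway genes named here (1 row per gene, with its list) at 24, 48 and 72 h of Dox against No Dox, on a colour scale limited to -5 to 5. Values marked n.c. did not pass both thresholds, and DCN at 72 h, with 3 counts in all, has no value. THBS1, FSTL1, FN1 and TAGLN are red at all 3 times, ITGB8, NOG, HPGD, ATOH8 and HES1 are blue, and PMEPA1 and GDF15 change colour.

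Genes known to respond to TGF-beta were called in both directions. Of 19 tested, 7 were called higher and 4 lower at 24 h, 6 and 6 at 48 h, and 6 and 7 at 72 h, with medians of 0.62, -0.08 and -0.17. LTBP2, SKIL and PMEPA1 are among them and were already counted in the lists above. For all genes tested, 29.6%, 25.1% and 22.5% were called, with medians of -0.03, -0.01 and -0.02. FN1 (fibronectin) was higher by 3.39, 3.26 and 3.97 and TAGLN (transgelin) by 3.04, 2.42 and 2.54 on the log2 scale. HPGD, a prostaglandin dehydrogenase gene, had 30, 20 and 9 counts over the 3 libraries at 24, 48 and 72 h, against 1087 in No Dox cells. Between 48 h and 24 h, 6 of the 19 were called lower, PMEPA1 among them, beside 1.44% of all genes called lower.

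Genes known to respond to BMP signalling included 12 tested, of which 6 were called higher and 4 lower at 24 h, 8 and 4 at 48 h, and 6 and 4 at 72 h, with medians of 1.31, 1.38 and 1.09. BAMBI, SMAD6, SMAD9 and NOG are among them and were already counted in the lists above. For all genes tested, 29.6%, 25.1% and 22.5% were called, with medians of -0.03, -0.01 and -0.02. RUNX2, an osteoblast transcription factor gene, averaged 11.6 ± 1.19, 19.6 ± 0.09 and 32.3 ± 1.31 CPM at 24, 48 and 72 h, against 4.28 ± 0.36 CPM in No Dox cells. HES1, also a Notch target, fell to 2.28 ± 0.76, 3.13 ± 0.32 and 3.27 ± 0.18 CPM, against 18.7 ± 1.12 CPM. ATOH8, a helix-loop-helix factor gene, had 14, 13 and 11 counts over the 3 libraries at the 3 times, against 379 in No Dox cells. Among 7 tested E protein genes and ID partners, MXI1, the gene of a MAX-binding repressor, was called lower at all 3 times (-2.42 ± 0.08, -1.61 ± 0.07 and -1.38 ± 0.07), and ETS1, an ETS factor gene, was called higher at 24 h (1.63 ± 0.06).

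The genes whose log2 CPM ran most like each of the 10 over the 12 libraries were sought among 9330 other protein-coding genes (9331 where the gene itself was too low to be on that list). All points share the step between No Dox and Dox libraries, so these values of r are a description. ID1 was followed most closely by CADM4 (Pearson r = 0.993) and RHOF (0.991), and ID3 by UAP1 (0.994) and TUBA4A (0.993). For TGFB2 they were SHISA9 (0.990) and PTPRJ (0.989), and for INHBA they were ABL2 (0.995) and FAM72C (0.994), one of several near-identical copies whose counts are uncertain. BARD1 and SASS6 (both 0.984) ran most like ID2. TGFBR2 ran with SLC22A23 (0.995) and ZBTB40 (0.994), and SMAD3 with TMEM164 (0.992) and BRD1 (0.991). The closest values were lower for SMAD7 (PITPNM1 and EHD2, both 0.960), TGFB1 (PGAP6, 0.951, and INPPL1, 0.944) and TGFBR1 (PITPNB, 0.928, and MFSD11, 0.913).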

How the data were processed

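RNA-seq was measured in 12 libraries of MCF10A-Inducible TAZ-4SA cells, from poly(A)-selected RNA. Alignment to GRCh38 (STAR) and gene counting (RSEM) were done by the authors, and the sources used here give no versions. The deposited tables hold expected counts, not normalized, and TPM, scaled by the authors for transcript length and depth. Expected counts were rounded and fitted with edgeR 4.0.16 (R 4.3.3, limma 3.58.1): TMM factors, filterByExpr, 1 mean per group over all 12 libraries, quasi-likelihood test, Benjamini-Hochberg over 14822 genes. Genes were called at an adjusted p under 0.05 and a log2 fold change of at least 1. DESeq2 1.42.0, other scalings, filters and single libraries left out were tried as alternatives. The 10 genes and all lists were chosen with earlier results of these data known. All 10 genes are named, together with up to 4 called genes of each list with the largest change among those of at least 5 CPM in the higher group. Some genes that met this rule are not reported here. CPM are expected counts scaled to a common TMM-adjusted total. Depth ranged over 15382564 to 26570132 counts, and the biological coefficient of variation was 5.71%. The scripts were tested on simulated data. Coordinates, exons and names came from GENCODE 44 and RefSeq.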

Additional observations from a re-analysis of the deposited data

Results flagged for a closer look

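4 differences between times in Dox passed both the adjusted p and the fold threshold. The test was of the difference itself (edgeR quasi-likelihood test, log2 scale, adjusted over all genes). More differences passed the adjusted p alone, as given above. ID1 was higher at 48 h than at 24 h by 1.29 (adjusted p = 2.05e-12) and higher at 72 h than at 24 h by 1.59 (adjusted p = 2.33e-14), in 3 of 3 libraries each. INHBA was higher at 72 h than at 24 h by 1.20 (adjusted p = 3.83e-06), and ID3 changed by -1.21 over the same times (adjusted p = 2.11e-12), again with no overlap between the 3 libraries of each time. A test against the fold threshold itself (glmTreat) gave an adjusted p of 0.527 for INHBA.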

How the results depend on the processing

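With no fold threshold, the genes called numbered 11142, 10646 and 10252 at 24, 48 and 72 h against No Dox, 5414 between 48 h and 24 h, 5742 between 72 h and 48 h, 8992 between 72 h and 24 h, and 12786 over the time course. Of the 10 genes, 8 and 10 were then called at 24 and 72 h, and 4, 7 and 7 between times. Of the other pathway genes, 79, 77 and 77 were called against No Dox, 47, 35 and 62 between times and 87 over the time course. glmTreat called 2464 and 2155 genes at 48 and 72 h, 177, 26 and 655 between times, and 0 and 10 other pathway genes at 72 h against 48 h and 72 h against 24 h. It did not call SMAD7 at 48 h (adjusted p = 0.661), or TGFBR2 (0.62) and ID3 (0.712) at 72 h. DESeq2 with effective lengths called 2 of the 10 genes at 48 h against 24 h, ID3 among them (-1.01). Leaving out 1 library gave 0 to 1 of the 10 genes and 0 to 3 other pathway genes at 72 h against 48 h. The log2 values that changed sign were all uncalled: TGFBR1 at 24 h (-0.0225 with upper-quartile factors, -0.0023 unscaled, -0.00065 in DESeq2 with effective lengths), PMEPA1 at 72 h (0.20 in DESeq2 and 0.22 in edgeR with effective lengths), TGFBR2 at 48 h against 24 h (0.0091 and 0.0028 without the second 24 h or the first 48 h library, in a range of -0.0696 to 0.0091), and at 72 h against 48 h ID2 (-0.18 and -0.20 with effective lengths, -0.0392 and -0.0138 without the third 48 h or the second 72 h library, in a range of -0.0392 to 0.143) and SMAD7 (-0.0059 without the third 48 h library, in a range of -0.0059 to 0.218). Causes were not tested.

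Deviations from the group means were correlated between libraries of different groups. Over 18 pairs with the same replicate number r ranged from -0.205 to 0.32, with 3 over 0.1. The mean r was 0.0173 for these pairs and -0.00912 for pairs of unlike number. The labels do not say what the numbers stand for, so whether they pair libraries could not be settled. With a replicate block, 4380, 3712 and 3321 genes were called at 24, 48 and 72 h, against 4391, 3718 and 3333 without it, and 4, 6 and 6 of the 10 genes either way. Depth limits INHBA and ID2, whose No Dox means rest on 40 and 31 counts.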
